A study of Homo sapiens with 6 samples.

Results

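When amino acids run short or unfolded proteins build up in the endoplasmic reticulum (ER), cells answer through linked programs. Kinases that phosphorylate the initiation factor eIF2 slow general translation but favour translation of the transcription factor ATF4, which switches on amino acid transporters, enzymes of serine, asparagine and one-carbon metabolism, and regulators such as DDIT3 (also called CHOP). In the ER itself, the sensors IRE1 and ATF6 raise the chaperones and disulphide isomerases that fold secreted proteins, together with the machinery that removes misfolded ones, with XBP1 as the transcription factor made active by IRE1. To ask how these genes behaved under the peptide GLUP, 38 genes were found by symbol among the 62443 genes of the expression table and treated as separate arms, an ATF4 arm of 20 genes and an ER arm of 18 genes. Genes were listed by known function, with earlier results of these data already known, and all 38 symbols were present.

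The libraries came from HGC-27, an established human gastric cancer cell line, with 3 Con samples and 3 samples treated with GLUP. This cyclic peptide was modelled on the TEAD4-binding part of VGLL4 and is meant to hold TEAD4 molecules together. The labels give no treatment for Con, whereas the methods of the study name the peptide's storage buffer, and the duration of treatment is stated differently in the results and the methods, so none is given here. The cells were the unmodified line in both groups. The methods give only a minimum number of biological replicates, without saying how many of these libraries they are. Since nothing in the labels says whether libraries of a group came from separate cultures, the p-values measure the spread between these samples, which may be technical.

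Expression is given as FPKM, fragments scaled to gene length and to library size. Levels of different genes can be compared only roughly, since values also varied with base composition, as described further on. Library totals were 909735 to 965147 FPKM, of which mitochondrially encoded genes held 21.9% to 29.7%. The number of reads is unknown, since only a few percent of low values fell on a common step. Two-sided tests were made with limma on log2(FPKM + 1) for the 7406 genes that averaged 1 FPKM or more. The line had the mesenchymal marker VIM at 222.2 to 387.2 FPKM, but CDH2, the other marker of that list, at no more than 0.051 FPKM. Epithelial markers were low as well and summed to 2.97 to 6.06 FPKM over 5 genes, with EPCAM and CDH1 at no more than 0.12 FPKM. The 5 gastric mucosa markers summed to at most 0.06 FPKM. Of the markers of other cells, the 3 fibroblast genes, all detected, summed to 31.1 to 60.3 FPKM, the 4 leukocyte genes to 0.28 to 1.52 FPKM, and the 2 endothelial genes found to at most 0.0045 FPKM. Their part in the results was not tested. Across tested genes, Con replicate 2 correlated with the GLUP libraries at a mean Pearson's r of 0.884 and Con replicate 3 at 0.981, above the 0.939 of Con replicate 3 with the other controls. Calls that depend on Con replicate 3 are given without it, and the value without Con replicate 2 is given where it moved a member's log2 fold change by over 1.5 times.

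Of the 38 members, 33 passed the minimum of 1 FPKM and were tested, 16 in the ATF4 arm and 17 in the ER arm. None had an adjusted p under 0.05 in limma, the background being 0% of all tested genes in each direction. Adjusted p-values of the members ran from 0.194 to 0.944. At an unadjusted p under 0.05 there were 8 lower members (background 17.2% of all tested genes) and 1 higher member (background 4.46%). All 3 GLUP values lay below all 3 Con values for 10 of the 33 members, or 30.3% of them against a background of 22.7%, and above them for 3 members, or 9.09% against 7.55%. For each of these 13 genes the exact permutation test over libraries, two-sided, gave p = 0.1, the smallest that 3 against 3 libraries allow. In bulk RNA, fewer cells expressing a gene and less of its RNA per cell cannot be told apart.

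**Figure D1:**
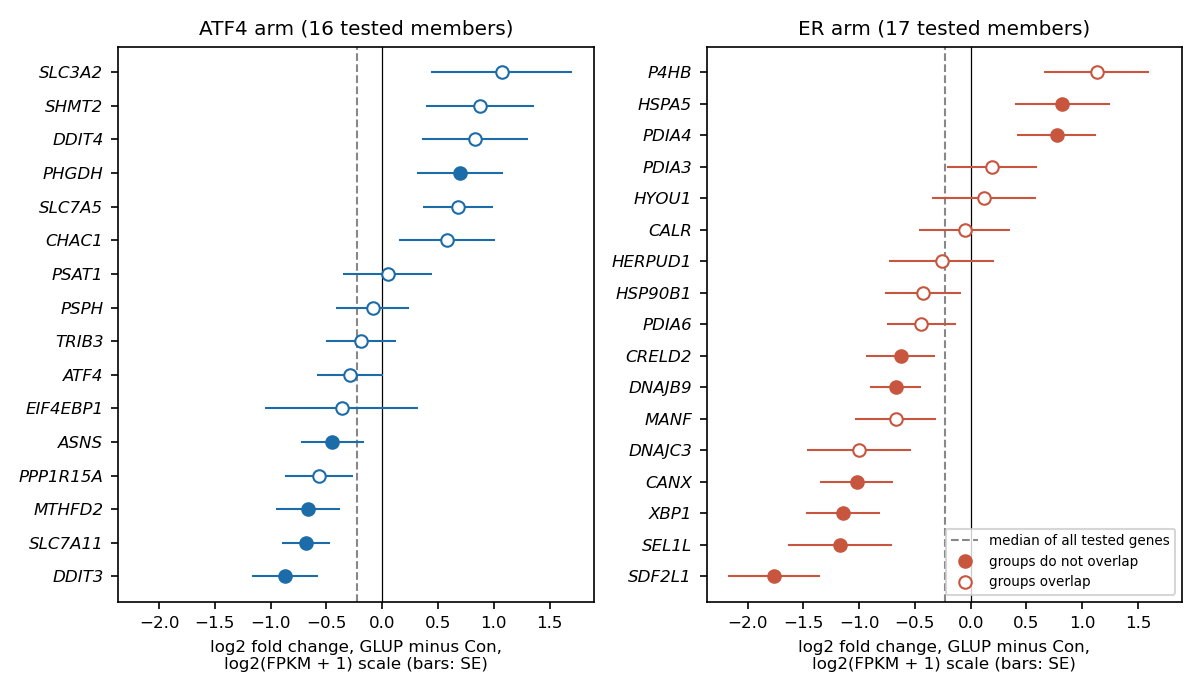
Log2 fold change (GLUP minus Con, log2(FPKM + 1) scale, horizontal axis) of each tested member, with bars for the standard error, in the ATF4 arm (left, 16 genes) and the ER arm (right, 17 genes). The dashed line is the median of all tested genes, -0.23, and filled points are the 5 and 8 members whose groups did not overlap; SDF2L1 lies farthest to the left at -1.76 and P4HB farthest to the right at 1.13.

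The middle of the ER arm lay lower than that of the ATF4 arm, but only with Con replicate 2 in the comparison. The median log2 fold change was -0.14 over the 16 tested genes of the ATF4 arm and -0.44 over the 17 of the ER arm, beside -0.23 over all tested genes. Without Con replicate 2 the medians were -0.42 and -0.41, beside -0.19. In the ATF4 arm 9 genes had a lower and 7 a higher mean in GLUP, and in the ER arm 12 were lower and 5 higher, while 65.5% of all tested genes were lower. Scaling by a trimmed mean of log ratios moved the median of all tested genes to -0.02 and the split to 7 lower and 9 higher in the ATF4 arm and to 10 lower and 7 higher in the ER arm. The genes whose sign turned with this scaling were TRIB3, PSPH, HERPUD1 and CALR, none of which had separate groups. Taken per library as the median deviation of the members from their gene means, minus that of all tested genes, the ER arm was at 0.14, 0.14 and 0.08 in Con replicates 1 to 3 and at -0.15, -0.15 and -0.33 in the GLUP replicates. The ATF4 arm was at 0.15, -0.86 and 0.40 in Con and at 0.12, -0.05 and 0.07 in GLUP, so that its Con libraries spanned the GLUP libraries. These medians are descriptions and were not tested.

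**Figure D2:**
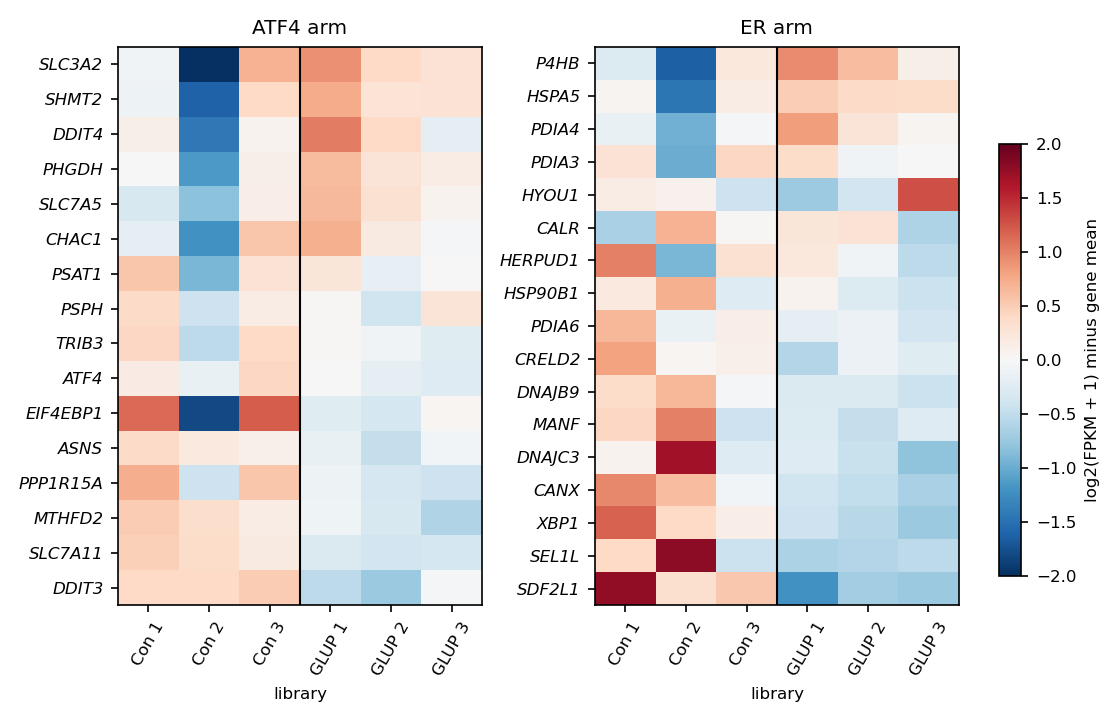
Deviation of log2(FPKM + 1) from the gene mean for each tested member (rows, ordered by fold change) in the 6 libraries (columns), red above and blue below the mean, with the colour scale ending at -2 and 2. Con 2 is blue over most of the upper ATF4 arm and dark red for SEL1L and DNAJC3 in the ER arm. It was the lowest of the 6 libraries for 11 of the 16 genes of the ATF4 arm. Over all tested genes it was the lowest for 28.8% and the highest for 37.6%.

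ATF4 itself (ENSG00000128272, chromosome 22, 39915700 to 39918688, plus strand, GRCh37 as lifted by GENCODE) was at 49.8, 39.7 and 58.9 FPKM in Con replicates 1 to 3, against 44.2, 38.9 and 36.6 FPKM with GLUP. The groups overlapped, since Con replicate 2 lay among the GLUP libraries. Its log2 fold change of -0.29 (SE 0.29) had an adjusted p of 0.536 in limma, and was -0.44 without that library. This is the level of the transcript, and since ATF4 is controlled mainly through its translation, it carries no measure of the protein.

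DDIT3 (ENSG00000175197, protein-coding, chromosome 12, 57910371 to 57915520, minus strand), a transcription factor induced by ATF4 and linked to cell death under ER stress, had the most negative log2 fold change of the ATF4 arm. It was at 159.0, 160.3 and 173.3 FPKM in Con and at 84.0, 72.0 and 117.2 FPKM in GLUP. Every GLUP library was below every Con library, and the Con libraries stood unusually close together, at 164 ± 7.90 FPKM (SD, n = 3) against 91.1 ± 23.4 FPKM (SD, n = 3). This gave a log2 fold change of -0.87 (SE 0.30), which is -0.64 after subtracting the median of all tested genes, and limma gave an adjusted p of 0.198. Leaving out Con replicate 2 gave -0.89 and leaving out Con replicate 3 gave -0.83, so that neither of these libraries carried it. The value was -0.81 after removal of the GC and length trend described further on, and -0.59 when scaled by a trimmed mean of log ratios. Over the 20 other settings the log2 fold change ran from -1.07 to -0.58. With upper quartile scaling neither DDIT3 nor ATF4 had separate groups. DDIT3 was also more abundant than ATF4 in each of the 6 libraries. MARS1 overlaps DDIT3 on the other strand at 6.16 to 12.5 FPKM, and strand-specific counting is not stated.

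The remaining transcription factors of this arm were barely detected. ATF5, a relative of ATF4, was between 0.259 and 0.949 FPKM, and CEBPB, a partner of ATF4 and DDIT3, between 0.0680 and 0.220 FPKM, both below the minimum for testing and with overlapping groups.

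Among the feedback genes and growth brakes that ATF4 and DDIT3 induce, no tested member had separate groups. DDIT4, an inhibitor of the growth kinase mTORC1, was at 22.7, 7.13 and 21.9 FPKM in Con and at 43.5, 27.9 and 18.3 FPKM in GLUP. Its log2 fold change of 0.83 (SE 0.47) became 0.33 without Con replicate 2, the lowest library. PPP1R15A, the phosphatase subunit that reverses eIF2 phosphorylation and is itself a target of DDIT3, was at 2.54, 0.610 and 2.14 FPKM in Con and at 0.994, 0.703 and 0.611 FPKM in GLUP. Here Con replicate 2 lay below all GLUP libraries, and the log2 fold change of -0.57 (SE 0.30) was -0.92 without it. TRIB3, a pseudokinase that restrains ATF4, had a log2 fold change of -0.19, and CHAC1, which degrades glutathione, one of 0.58. Without Con replicate 2 these were -0.50 and 0.11. SESN2, a leucine-sensing brake on mTORC1, was below the minimum, at 0.157 to 1.51 FPKM.

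EIF4EBP1, which blocks cap-dependent translation, was the most abundant member in 5 of the 6 libraries. It was at 1223, 158.0 and 1293 FPKM in Con and at 472.1, 433.8 and 572.9 FPKM in GLUP. The GLUP libraries therefore sat between the controls, and the log2 fold change moved from -0.36 (SE 0.68) to -1.36 without Con replicate 2 and to 0.15 without Con replicate 3.

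Of the 6 tested enzymes of the arm, 3 had a lower and 3 a higher mean in GLUP. ASNS, which makes asparagine, was at 18.5, 16.2 and 15.04 FPKM in Con and at 12.6, 9.82 and 13.4 FPKM in GLUP, and MTHFD2, the mitochondrial one-carbon enzyme, was at 21.5, 19.2 and 16.6 FPKM and at 13.9, 11.8 and 9.45 FPKM. For both genes all GLUP values lay below all Con values. Log2 fold changes were -0.45 (SE 0.28) for ASNS and -0.67 (SE 0.29) for MTHFD2, with adjusted p-values of 0.334 and 0.220 in limma. Once the GC and length trend was taken out they were 0.01 and -0.18. The copy ASNSP1, at 1.80 to 5.58 FPKM, makes the split of reads for ASNS uncertain.

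The enzymes that make serine from a glycolytic intermediate and split it to glycine had no common direction. PHGDH, the first enzyme of serine synthesis, was at 37.8, 16.6 and 41.2 FPKM in Con and at 59.8, 45.9 and 42.3 FPKM in GLUP. Its groups were separate, though GLUP replicate 3 was close to Con replicate 3, and the log2 fold change of 0.70 (SE 0.38) had an adjusted p of 0.285 in limma and was 0.30 without Con replicate 2. SHMT2, which splits serine to feed the mitochondrial one-carbon pool, was at 35.3, 11.7 and 50.6 FPKM in Con and at 64.4, 46.2 and 46.5 FPKM in GLUP. Its log2 fold change of 0.88 (SE 0.48) was 0.29 without Con replicate 2, and Con replicate 3 lay within the GLUP values. PSAT1 and PSPH, which complete serine synthesis, had log2 fold changes of 0.05 and -0.09. Without Con replicate 2 these were -0.39 and -0.31, and PSPH is uncertain because its copy PSPHP1 was at 11.4 to 30.8 FPKM.

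Of the amino acid transporters, SLC7A11 and SLC3A2, which together form the cystine-glutamate exchanger, had log2 fold changes of opposite sign. SLC7A11 (ENSG00000151012, chromosome 4, 139085251 to 139163503, minus strand), the exchanging subunit, was at 2.37, 2.11 and 1.71 FPKM in Con and at 0.966, 0.842 and 0.885 FPKM in GLUP. The groups were well apart and the GLUP libraries nearly equal. Its log2 fold change of -0.69 (SE 0.21) had an adjusted p of 0.194 in limma, and fitted without the GC and length trend it was -0.08. At 35.4%, this transcript had the lowest GC content of all tested members. SLC3A2, the heavy chain that carries both SLC7A11 and SLC7A5 to the membrane, was at 93.0, 20.2 and 160.3 FPKM in Con and at 185.2, 130.3 and 120.6 FPKM in GLUP. Its log2 fold change of 1.07 (SE 0.63), the highest of the arm, became 0.22 when Con replicate 2 was left out and 1.69 when Con replicate 3 was. SLC7A5, which imports leucine, stood at 0.68 (SE 0.32) on the log2 scale, with limma giving an adjusted p of 0.240, and its groups overlapped through Con replicate 3. It was 0.44 without Con replicate 2. SLC7A1, which imports arginine, was below the minimum, at 0.556 to 1.34 FPKM.

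**Figure D3:**
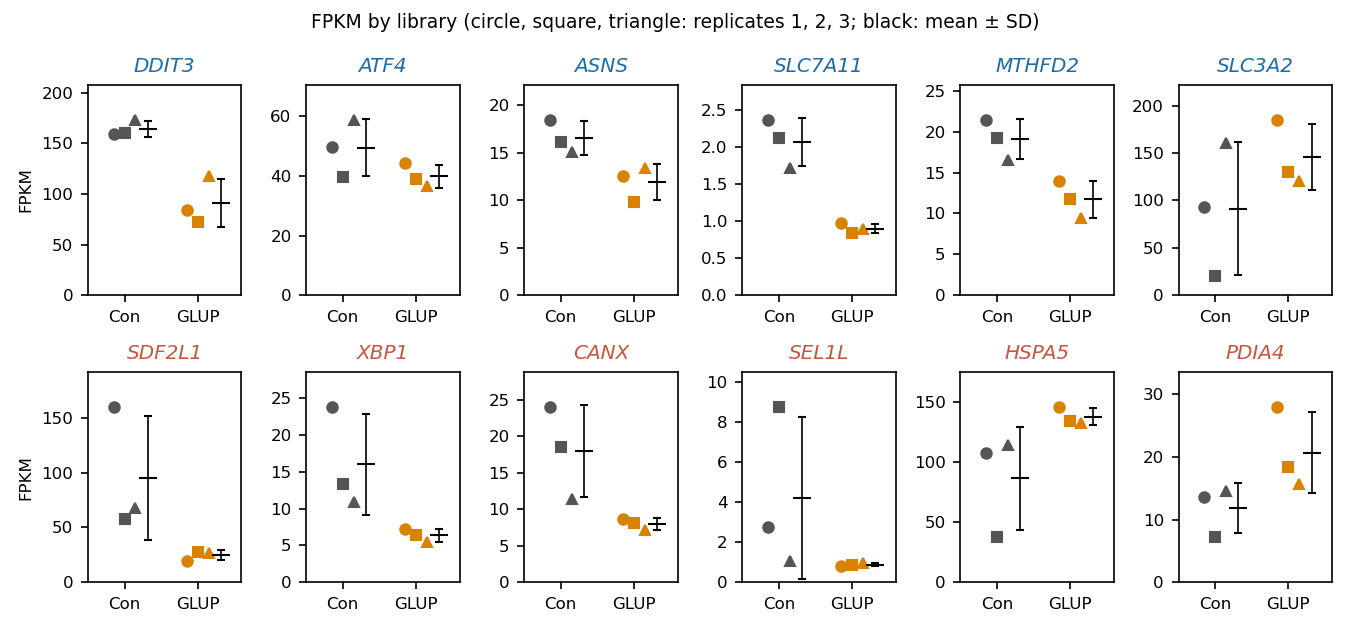
FPKM (vertical axes, each starting at 0) of 6 members of the ATF4 arm (upper row) and 6 of the ER arm (lower row) in each Con and GLUP library, with the mean and SD in black (n = 3). DDIT3, SLC7A11, MTHFD2, ASNS, SDF2L1, XBP1, CANX and SEL1L are lower in every GLUP library than in every Con library, HSPA5 and PDIA4 are higher, and ATF4 and SLC3A2 overlap.

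Genes of the ER arm are tied together by DNA elements near their starts, and the promoter windows of RefSeq (GRCh38.p14, from 250 bases before to 50 bases after each annotated start) were searched for them on both strands. The ER stress response element, ERSE (CCAAT and CCACG with 9 bases of any kind between them), was held by 0.0769% of 35116 windows, and ERSE-II (ATTGG and CCACG with any 1 base between them) by 0.0541%. Windows were found for 17 of the 18 ER members, and 7 of these genes held ERSE and another 3 ERSE-II. These are counts of genes with a match in any of their windows. The percentages are of single windows, of which a gene can have several, so they can be compared only roughly. None of the 16 genes of the ATF4 arm with a window held either. The element UPRE (TGACGTGG), in 0.729% of windows, was found in HYOU1 alone, where it overlaps an ERSE-II. The CARE element bound by ATF4 (TGATGNAA) was in 3.62% of windows, and in those of ASNS, CHAC1, SLC3A2 and SLC7A1 of the ATF4 arm and of HERPUD1. PSPH, SHMT2, SLC7A11, EIF4EBP1 and PDIA3 had no entry. The following stretches are shown so that the element can be compared between genes whose log2 fold changes ranged widely, among the ERSE genes HSPA5 with a higher mean in GLUP and XBP1, CRELD2 and PDIA6 with a lower one, and among the ERSE-II genes HYOU1 with a higher mean and SDF2L1 and HERPUD1 with a lower one. They run 5′ to 3′ on the strand of the gene with the matched element in capitals (in either orientation). ASNS and CHAC1 are added for the element bound by ATF4, which they share and which lies before their starts.
HSPA5 (ERSE, chr9:125241379-125241421, minus strand): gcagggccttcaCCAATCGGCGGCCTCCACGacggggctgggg
XBP1 (ERSE, chr22:28800591-28800633, minus strand): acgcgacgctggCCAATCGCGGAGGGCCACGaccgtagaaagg
CRELD2 (ERSE reversed, chr22:49918542-49918584, plus strand): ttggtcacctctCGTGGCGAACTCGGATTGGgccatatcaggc
PDIA6 (ERSE, chr2:10812841-10812883, minus strand): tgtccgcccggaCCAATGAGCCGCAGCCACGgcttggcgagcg
SDF2L1 (ERSE-II reversed, chr22:21642102-21642136, plus strand): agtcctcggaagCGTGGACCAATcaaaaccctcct
HERPUD1 (ERSE-II, chr16:56932013-56932047, plus strand): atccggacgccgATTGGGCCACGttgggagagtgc
HYOU1 (ERSE-II reversed, chr11:119057262-119057296, minus strand): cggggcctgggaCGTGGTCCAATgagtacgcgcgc
ASNS (CARE, chr7:97872457-97872488, minus strand): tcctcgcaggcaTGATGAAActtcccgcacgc
CHAC1 (CARE reversed, chr15:40953250-40953281, plus strand): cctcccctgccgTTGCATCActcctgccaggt

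Of the 10 ER members with ERSE or ERSE-II, 8 had a lower and 2 a higher mean in GLUP, where 65.5% of all tested genes were lower. Their log2 fold changes ran from -1.76 (SDF2L1) to 0.82 (HSPA5), with a median of -0.43. Members on both sides moved with a single library or with the fit. HSPA5 was at 0.31 without Con replicate 2, where its GLUP values still lay above the remaining Con values. It was at 1.15 without the GC and length trend described further on. The 0.12 of HYOU1 rested on GLUP replicate 3. Among the lower members, CALR turned to 0.29 without Con replicate 2. HERPUD1 and HSP90B1 turned to 0.02 and 0.06 without the GC and length trend. The 6 tested ER members whose windows held neither element ran from -1.17 (SEL1L) to 1.13 (P4HB), with 4 lower and 2 higher. A match is only a run of letters in the window and was not tied to binding in these cells.

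XBP1 (ENSG00000100219, protein-coding, chromosome 22, 29190543 to 29196585, minus strand, GRCh37), the transcription factor of the arm, was at 23.8, 13.3 and 10.9 FPKM in Con and at 7.17, 6.39 and 5.51 FPKM in GLUP. All GLUP libraries were below all Con libraries, with a mean of 16.0 ± 6.83 FPKM (SD, n = 3) against 6.36 ± 0.828 FPKM (SD, n = 3). The log2 fold change was -1.14 (SE 0.33), which is -0.91 beside the median of all genes, and limma gave an adjusted p of 0.194. It stayed between -1.36 and -0.84 over the 20 other settings, and was -1.01 once the GC and length trend was taken out. Gene-level FPKM cannot tell the spliced, active form of XBP1 from the unspliced form.

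SDF2L1 (ENSG00000128228, chromosome 22, 21996591 to 21998588, plus strand), a partner of HSPA5 in a chaperone complex of the ER, was the member with the largest difference of all. It was at 159.7, 57.4 and 67.3 FPKM in Con and at 19.2, 27.8 and 27.1 FPKM in GLUP. The lowest Con library was thus above the highest GLUP library. On the log2 scale the difference was -1.76 (SE 0.41), which is -1.53 beside the median of all genes, and limma gave an adjusted p of 0.194. Over the other settings it ran from -2.12 to -1.32, the first of these being the value without the GC and length trend.

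HSPA5 (ENSG00000044574, chromosome 9, 127997132 to 128003661, minus strand), the ER HSP70 chaperone also known as BiP and the usual readout of ER stress, was on the other side. It was at 107.9, 37.5 and 114.8 FPKM in Con and at 146.2, 134.6 and 133.2 FPKM in GLUP. Every GLUP library exceeded every Con library. The log2 fold change of 0.82 (SE 0.42) had an adjusted p of 0.267 in limma, but it was 0.31 without Con replicate 2, the library at 37.5 FPKM.

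Of the 7 tested HSP-family chaperones and their partners, 5 had a lower and 2 a higher mean in GLUP. DNAJB9, a cochaperone that restrains IRE1, was at 1.51, 2.07 and 0.905 FPKM in Con and at 0.587, 0.594 and 0.439 FPKM in GLUP, with separate groups. The difference of -0.67 (SE 0.23) on the log2 scale became -0.05 without the GC and length trend. The cochaperone DNAJC3 and the secreted ER protein MANF had overlapping groups. Their log2 fold changes were -1.001 and -0.672, which are -0.77 and -0.44 beside the median of all genes. Each gene had its highest value in Con replicate 2 (16.8 and 12.2 FPKM). Without that library the log2 fold changes moved from -1.001 to -0.41 for DNAJC3 and from -0.672 to -0.34 for MANF, with no median subtracted. HSP90B1, the ER HSP90, was at 22.3 to 44.7 FPKM in Con and 19.7 to 28.3 FPKM in GLUP, with a log2 fold change of -0.43 (SE 0.34) that was -0.18 without Con replicate 2 and turned to 0.06 with the trend removed. HYOU1, an exchange factor of HSPA5, had a log2 fold change of 0.12 that rested on GLUP replicate 3, at 7.04 FPKM against 0.994 to 2.65 FPKM elsewhere, and was 0.19 without Con replicate 2.

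Of the 5 tested genes grouped as disulphide isomerases, CRELD2 among them, 2 had a lower and 3 a higher mean in GLUP. P4HB was at 9.90, 3.21 and 14.3 FPKM in Con and at 24.4, 19.3 and 13.3 FPKM in GLUP, a log2 fold change of 1.13 (SE 0.47). Its adjusted p in limma was 0.210, and it was the only higher member with an unadjusted p under 0.05. Con replicate 3 was above GLUP replicate 3, so the groups overlapped, and without Con replicate 2, the lowest library, the log2 fold change was 0.59 with an adjusted p of 0.294 by limma. PDIA4 was at 13.6, 7.30 and 14.6 FPKM in Con and at 28.0, 18.3 and 15.7 FPKM in GLUP, with separate groups and a log2 fold change of 0.77 (SE 0.36) that was 0.82 without the GC and length trend and 0.48 without Con replicate 2. Those of PDIA3 and PDIA6 were 0.19 and -0.44. PDIA3 was lower in GLUP without Con replicate 2, at -0.25, and its copy PDIA3P1 was at 3.31 to 7.89 FPKM. CRELD2, an ER protein that was grouped with the isomerases, was at 13.8, 7.74 and 8.17 FPKM in Con and at 4.65, 6.85 and 6.23 FPKM in GLUP. All of its GLUP values were below its Con values, and the log2 fold change was -0.63 (SE 0.31), or -0.97 with the trend removed.

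The lectin chaperones hold glycoproteins in the same folding cycle, CANX in the membrane and CALR in the lumen. CANX was at 24.0, 18.6 and 11.3 FPKM in Con and at 8.73, 8.13 and 7.13 FPKM in GLUP, with no overlap. Its log2 fold change of -1.02 (SE 0.33) had an adjusted p of 0.194 in limma and was -0.51 without the GC and length trend. CALR was at 12.3, 33.0 and 20.2 FPKM in Con and at 23.6, 24.7 and 12.7 FPKM in GLUP, a log2 fold change of -0.05 (SE 0.41) with a Con library at either end of the range. Without Con replicate 2 it was 0.29.

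In ER-associated degradation, SEL1L, the scaffold of the ubiquitin ligase complex that exports misfolded proteins, was at 2.74, 8.77 and 1.09 FPKM in Con and at 0.822, 0.879 and 0.965 FPKM in GLUP. The groups were separate, but Con replicate 3 was close to GLUP and Con replicate 2 far above. The log2 fold change of -1.17 (SE 0.47) had an adjusted p of 0.203 in limma and was -0.57 without Con replicate 2. HERPUD1, which recruits substrates to that complex, had a log2 fold change of -0.26 (SE 0.47), or -0.79 without Con replicate 2, and its 15.6 to 62.4 FPKM in Con enclosed all GLUP values. EDEM1, a mannosidase-like factor, was below the minimum, at 0.145 to 0.312 FPKM.

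The calls depended on Con replicate 3. In that library the deviation of genes from their means correlated with GC content at a Spearman's rho of 0.45 across genes, as in the GLUP libraries (0.34 to 0.54), whereas in Con replicates 1 and 2 it was -0.34 and -0.59, and the part of this in the calls was not tested. Without Con replicate 3, 7 members had an adjusted p under 0.05 in limma, all lower in GLUP, where the background was 16.3% of all tested genes for lower and 2.2% for higher. They were SLC7A11 of the ATF4 arm and CANX, XBP1, DNAJB9, SEL1L, SDF2L1 and MANF of the ER arm, with log2 fold changes from -1.93 for SDF2L1 to -0.77 for SLC7A11 and adjusted p-values of 0.0291 to 0.0431. They are 21.2% of the 33 tested members. DDIT3, at 0.0867, did not pass.

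Differences in the table followed base composition, and so did those of the members. Across 7388 genes, which are not independent replicates and share the same libraries, the Spearman correlation of the log2 fold change with the GC content of the transcript was 0.55, and over the 33 tested members it was 0.40. In the ATF4 arm the median GC content was 58.1% for genes with a higher mean in GLUP and 50.5% for genes with a lower one, and in the ER arm 51.9% and 46.3%. To see what remains, the smooth dependence of each library on GC content and length was subtracted (loess). Among the tested members, the log2 fold changes of largest size were then those of SDF2L1 (-2.12), HSPA5 (1.15), XBP1 (-1.01), CRELD2 (-0.97), P4HB (0.94), PPP1R15A (-0.83), SLC3A2 (0.82), PDIA4 (0.82) and DDIT3 (-0.81). The share of all tested genes with differences of this size was not counted. This fit kept Con replicate 2. With FPKM as deposited, HSPA5, P4HB, SLC3A2 and PDIA4 were at 0.31, 0.59, 0.22 and 0.48 without that library. At a GC content of 42.7% or less, SLC7A11, DNAJB9, MTHFD2 and ASNS came to lie between -0.18 and 0.01, and HSP90B1 at 0.06. In the same range of GC content, SEL1L (-0.66), CANX (-0.51), DNAJC3 (-0.50) and PSAT1 (0.52) lay farther from 0. With the trend removed the sign turned for 4 members, ASNS, PSPH, HERPUD1 and HSP90B1, and no tested member had an adjusted p under 0.05 in limma. Whether the trend is technical was not tested.

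**Figure D4:**
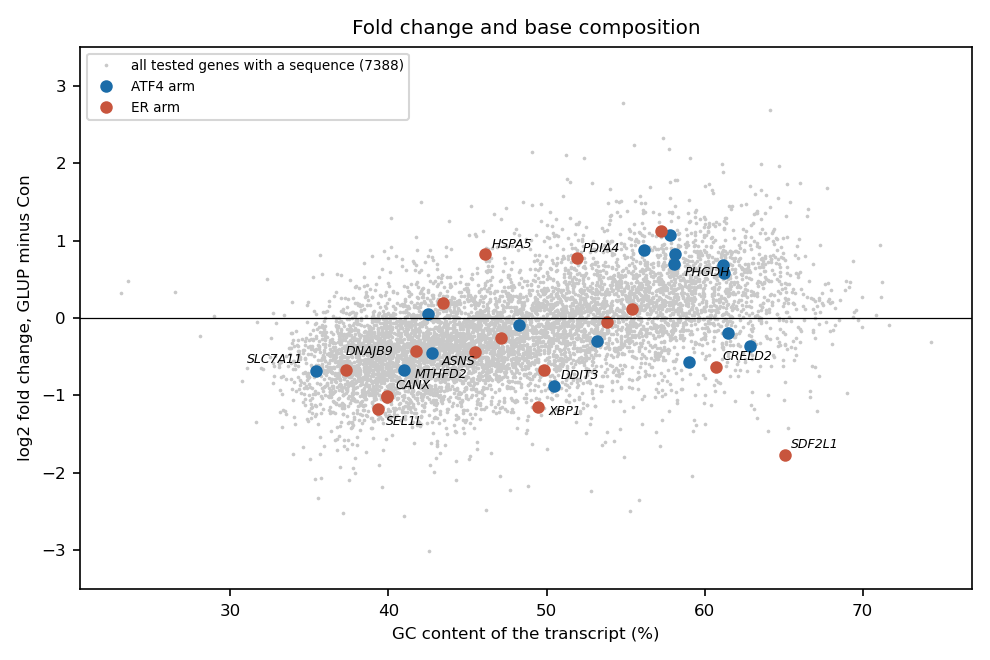
Log2 fold change (GLUP minus Con, vertical axis) against the GC content of the transcript in percent (horizontal axis) for 7388 tested genes (grey) and the tested members of the ATF4 arm (blue) and the ER arm (red), with the 13 members whose groups did not overlap named. SDF2L1, at 65.1% GC and -1.76, lies far below the rising cloud, HSPA5 lies at its upper edge, and SLC7A11 lies within it.

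**Figure D5:**
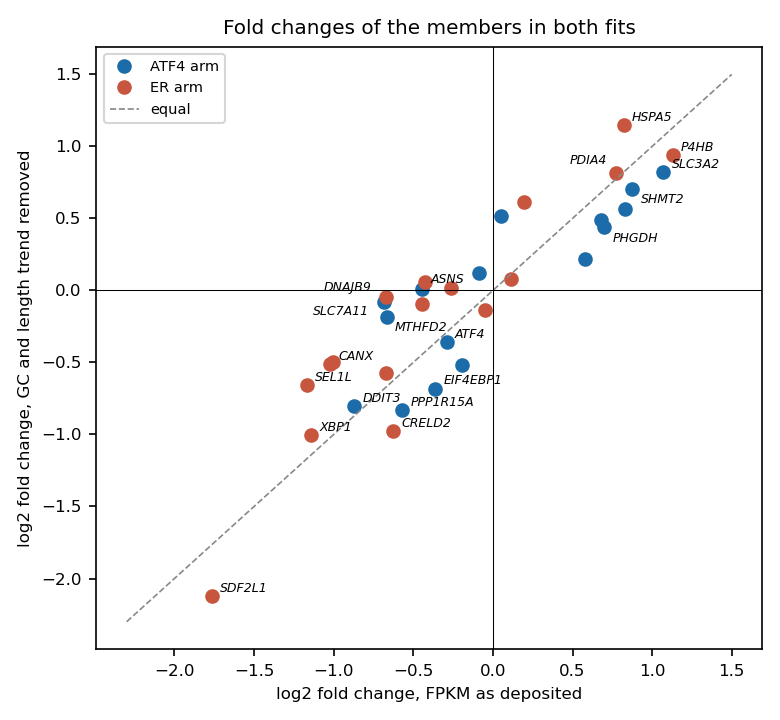
Log2 fold change of each tested member in the fit on FPKM as deposited (horizontal axis) and without the GC and length trend (vertical axis), blue for the ATF4 arm and red for the ER arm, with a dashed line for equal values. SLC7A11, DNAJB9, MTHFD2 and ASNS lie near 0 on the vertical axis, while SDF2L1, XBP1, DDIT3 and HSPA5 keep their distance from it. SEL1L and CANX, also of low GC content, lie between these at -0.66 and -0.51.

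Other genes of the same pathways, a list of 84 chosen by function, gave 57 tested genes. None had an adjusted p under 0.05 in limma, and at an unadjusted p under 0.05 there were 13 lower genes (22.8%, background 17.2%) and 1 higher gene (1.75%, background 4.46%). The groups did not overlap for 16 lower genes (28.1%, background 22.7%) and 5 higher genes (8.77%, background 7.55%). Their median log2 fold change was -0.24, beside -0.23 over all tested genes. In the sensing and cleavage steps, ERN1, the gene of IRE1, was below the minimum at 0.016 to 0.152 FPKM. So was EIF2AK3, at 0.022 to 0.188 FPKM. The genes of these steps that were tested were EIF2AK1, EIF2AK2, EIF2AK4, EIF2S1, EIF2B5, ATF6 and MBTPS1. All 7 had a lower mean in GLUP, where 65.5% of all tested genes did. Scaled by a trimmed mean of log ratios 6 were lower and 1 higher, and without the GC and length trend 4 were lower and 3 higher. ATF6, the membrane-bound sensor that is cut to release a transcription factor, was at -0.61 (SE 0.22) on the log2 scale, and at -0.15 without that trend. Of the 16 tested further ATF4-dependent genes, 7 were lower and 9 higher, and of the 34 tested further ER genes, 20 were lower and 14 higher. Without the GC and length trend the counts were 8 and 8 for the former and 13 lower and 21 higher for the latter, a balance turned the other way.

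The genes of this list with the smallest p and separate groups were CTH, CEBPG, CALU, KDELR3, PPIB and SELENOS. CTH, which makes cysteine, was at 4.61, 4.08 and 3.37 FPKM in Con and at 1.98, 1.22 and 1.88 FPKM in GLUP, a log2 fold change of -0.90 (SE 0.25). CEBPG, a dimer partner of ATF4, was at 13.2, 9.07 and 6.18 FPKM and at 3.15, 3.24 and 4.37 FPKM, a log2 fold change of -1.15 (SE 0.32). Without the GC and length trend these were -0.45 and -0.66. The calcium-binding ER protein CALU (-1.26), the retrieval receptor KDELR3 (-1.19) and the degradation factor SELENOS (-0.83) were lower too, and without that trend they were at -0.77, -0.81 and -0.63. PPIB, the cyclophilin that isomerises prolines in the ER, was at 144.9, 74.9 and 191.6 FPKM in Con and at 304.4, 273.4 and 318.7 FPKM in GLUP, a log2 fold change of 1.22 (SE 0.37), or 1.14 without the trend. Adjusted p-values of these 6 genes were 0.194 to 0.198 in limma.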

How the data were processed

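RNA of HGC-27 cells was sequenced, and expression was deposited as FPKM per gene in a table with a column for each of the 6 samples, 3 titled Con and 3 GLUP. The submitters' processing notes list HISAT2, Cufflinks and RSEM without versions and the build GRCh38.p10, whereas the row identifiers carry the suffix of a GENCODE annotation lifted to GRCh37. Ensembl identifiers gave a symbol for 62162 of 62443 genes, after 49 pseudoautosomal copies had been added to their counterparts. Gene coordinates, length and GC content came from GENCODE release 44 lifted to GRCh37, which may not be the authors' release, and promoter windows from RefSeq.

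FPKM carries no counts, so no count model was used. Values were transformed to log2(FPKM + 1), genes averaging 1 FPKM or more were kept, and GLUP was compared with Con in limma 3.58.1 (lmFit, eBayes with trend, two-sided, Benjamini-Hochberg over all 7406 genes) in R 4.3.3. On this scale the change of genes with low values is understated. Log2 fold changes of untested members are not given. The fit was tested on simulated data. The libraries were compared in pairs, and none appeared to be deposited again under another name. Depth is unknown, so no interval for counting error is given.

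The alternatives were other pseudocounts, filters, scalings and eBayes settings, a fit without the dependence on GC content and length (loess, span 0.5), a replicate block, and omission of each library in turn. Members were given with values per library where the adjusted threshold was passed, where the groups did not overlap, for ATF4, DDIT3, ASNS, XBP1 and HSPA5, and for the 3 largest differences in each direction of each arm. Values for other members, among them EIF4EBP1, PPP1R15A, CALR and HYOU1, were added after they were seen. The members and all lists were chosen with earlier results of these data known, so no test of a list was made. Same-numbered libraries were not taken as pairs. Tables and figures were made with Python 3.11.15, pandas 2.3.3 and matplotlib 3.10.9.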

Additional observations from a re-analysis of the deposited data

How the results depend on the processing

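Over 20 alternatives for each of the 18 members chosen by rule (19 for SLC7A11, DNAJB9 and SEL1L, which miss a minimum of 5 FPKM), 349 of 357 log2 fold changes kept their direction and their side of the threshold. Keeping the side says little, since no member passed in the fit reported here. At most 3 of all tested genes passed in any other fit but that without Con replicate 3. Sizes moved more, from 0.22 to 1.69 for SLC3A2 and from -1.18 to -0.08 for SLC7A11. ASNS turned from -0.45 to 0.011 without the GC and length trend, whether or not the replicate block was added, where its adjusted p in limma was 0.982 and 0.985; the cause was not tested. Without Con replicate 3, SLC7A11, XBP1, DNAJB9, SDF2L1, CANX and SEL1L passed the threshold. No other fit gave a member an adjusted p under 0.05. Leaving out each library gave 0 to 1 member past it in the ATF4 arm and 0 to 6 in the ER arm. The number of members with separate groups then ran from 5 to 10 in the ATF4 arm (5 as reported) and from 8 to 12 in the ER arm (8 as reported), and with the upper quartile scaling it was 3 in the ATF4 arm. The ATF4 arm reached 10 when Con replicate 2 was left out and 9 when Con replicate 3 was, where 2 Con libraries separate from GLUP more easily than 3. The share of all tested genes with separate groups was not counted in these fits. Their counts therefore have no background and say nothing particular to the members.

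The median log2 fold change of the ER arm minus that of all tested genes was -0.21. It was -0.43 with no filter and -0.33 with a minimum of 0.1 FPKM, where many genes at low values enter the median of all genes, -0.10 without the GC and length trend and again -0.10 with the replicate block added, and -0.34 to -0.21 over the fits that left out a library, the low end without Con replicate 3. That of the ATF4 arm was 0.09 and ran from -0.22 without Con replicate 2 to 0.38 without Con replicate 3.

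Same-numbered libraries did not deviate together (their deviations correlated at 0.13, -0.01 and -0.17), so the numbers are not taken as pairs. With the replicate block, 0 members of either arm had an adjusted p under 0.05 in limma, and at an unadjusted p under 0.05 there were 2 in the ATF4 arm and 7 in the ER arm (20.4% of all tested genes), against 3 and 6 without it (21.7%).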
